A study of Mus musculus with 6 samples.

Results

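RNA-seq values were examined for 10 genes of the adhesion switch and the epithelial-to-mesenchymal transition, *Cdh1*, *Cdh2*, *Cdh11*, *Epcam*, *Vim*, *Snai1*, *Snai2*, *Zeb1*, *Zeb2* and *Twist1*, in NMPs treated with retinoic acid (RA). The genes were chosen by name, as the rows that carry these symbols in the table of every sample, and they are 10 of the 20631 genes in the tables. All 10 passed the filter on low counts, which left 15143 genes to test. NMPs (neuromesodermal progenitors) are bipotent cells of the caudal embryo that form spinal cord and presomitic mesoderm. Here they were made from mouse ESCs, given as strain 129 R1 by the labels and as C57BL/6 by the methods, with bFGF and then with bFGF and CHIR99021, an agonist of WNT signalling. The 3 groups of 2 samples had no bFGF or CHIR99021 for the final 2 h and received DMSO, 25 nM RA or 1 µM RA in the retinoid-free medium N2B27. The duplicates were cells grown in separate dishes (technical replicates in the words of the methods), so p-values measure only the spread between dishes of a single experiment.

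In the epithelial-to-mesenchymal transition, cells joined by E-cadherin (*Cdh1*) lose their junctions and become motile, and N-cadherin (*Cdh2*) often takes the place of E-cadherin. The transcription factors of the Snail (*Snai1*, *Snai2*), Zeb (*Zeb1*, *Zeb2*) and Twist (*Twist1*) families drive the change, and Snail and Zeb proteins repress *Cdh1* by binding E-boxes in its promoter. In the gastrulating embryo, cells that leave the primitive streak to form mesoderm pass through such a transition, for which *Snai1* is needed. RA binds nuclear receptors that act on target genes through direct repeats of a hexamer half-site.

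After 2 h of RA the adhesion genes *Cdh1*, *Cdh2*, *Cdh11* and *Epcam* did not pass the test at either dose, whereas *Vim* and *Snai1* fell at both doses and *Snai2* and *Twist1* fell at 1 µM RA. The changes were small. At 1 µM RA, *Vim* fell by 18.3% and *Snai1* fell by 25.8% against DMSO. None of the 10 genes passed the test as higher. A gene was called here with an adjusted p under 0.1 in edgeR's likelihood ratio test, fitted to all 6 samples and adjusted by the Benjamini-Hochberg method over all genes tested. At 25 nM RA 2 of the 10 genes were lower and 0 were higher, where 3.55% of all genes tested were lower and 4.5% were higher. At 1 µM RA 4 of the 10 genes were lower and 0 were higher, where 11.2% of all genes were lower and 8.54% were higher. The 10 genes had a median log2 fold change of -0.13 with 25 nM RA and of -0.096 with 1 µM RA, and the medians over all genes tested were -0.00051 and 0.00128. The doses share their DMSO samples, so the values at one dose are not independent of those at the other.

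The samples held 31753556 to 42029348 estimated counts each, and the TMM factors lay between 0.98929 and 1.0078. The NMP label was checked against 6 markers. *T* was between 366.9 and 380.1 RPKM in all 6 samples, *Cdx2* was between 4.887 and 6.266 RPKM, and *Cdx4* was below 0.1 RPKM throughout. *Cdx2* was called higher at 25 nM RA only (6.266 and 5.813 RPKM, against 4.897 and 5.29 in DMSO). The other 3 markers were higher at both doses. *Nkx1-2* was at 39.28 and 38.93 RPKM in DMSO, 81.2 and 77.89 in 25 nM RA and 80.55 and 74.84 in 1 µM RA. *Sox2* was at 5.21 and 5.198 RPKM in DMSO, 15.53 and 15.25 in 25 nM RA and 17.25 and 15.35 in 1 µM RA. *Cdx1* was at 6.025 and 6.687 RPKM in DMSO, 23.72 and 19.91 in 25 nM RA and 23.2 and 25.67 in 1 µM RA. Of 7 pluripotency markers, *Pou5f1* was at 432.1 to 470.5 RPKM, *Nanog* at 18.12 to 20.83 and *Zfp42* at 4.547 to 5.832. *Esrrb*, *Klf4*, *Tbx3* and *Dppa3* were at or below 0.9455 RPKM in every sample. Markers of some other cells changed with RA. The summed level of 5 presomitic mesoderm markers was 85.9 to 87.2 RPKM in DMSO, 58.1 to 63.1 in 25 nM RA and 52.7 to 57.5 in 1 µM RA, with 4 of the 5 genes lower at each dose and 1 higher. The 6 endoderm markers summed to 37.9 to 40.0 RPKM in DMSO, 29.7 to 30.1 in 25 nM RA and 29.9 to 31.7 in 1 µM RA, with 4 lower and 1 higher at each dose. The 5 neural markers summed to 16.7 to 16.9 RPKM in DMSO, 16.1 to 17.8 in 25 nM RA and 14.9 to 15.2 in 1 µM RA. Of the 4 neural markers tested, 0 were called at 25 nM RA and 1 was lower at 1 µM RA.

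In DMSO the genes spanned from 0.284 ± 0.036 RPKM (SD, n = 2) for *Snai2* to 123 ± 3.8 RPKM for *Vim*. RPKM divides a transcript's reads by its length and by the depth of the library, a level per length that allows genes to be compared. The order of the mean levels was *Vim*, *Epcam*, *Cdh1*, *Cdh2*, *Cdh11*, *Snai1*, *Twist1*, *Zeb2*, *Zeb1* and *Snai2* in each of the 3 groups, and no neighbours in that order overlapped between their duplicates. Both the epithelial genes and the mesenchymal *Cdh2* and *Vim* were thus read at high levels in the same samples. *Vim* stood at the 96.7 percentile of all genes tested in DMSO, *Epcam* at 94, *Cdh1* at 93.4 and *Cdh2* at 89.9. The transcription factors were lower, with *Snai1* at the 66.8 percentile, *Twist1* at 51.3, *Zeb2* at 42.7, *Zeb1* at 30.6 and *Snai2* at 12.7. In bulk RNA, fewer cells that express a gene and less RNA of it per cell cannot be told apart.

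**Figure D1:**
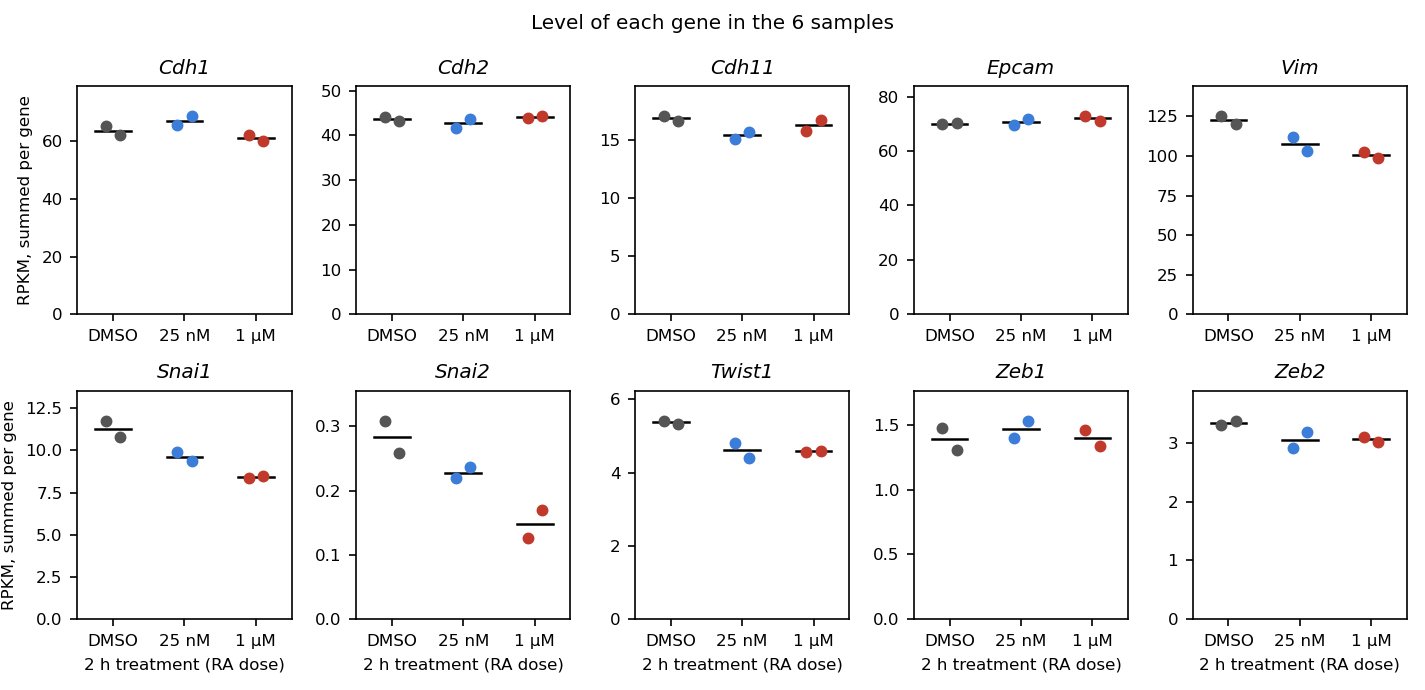
Level of each of the 10 genes (RPKM summed per gene, linear axis from 0, a separate scale per gene) in the 2 samples each of DMSO, 25 nM RA and 1 µM RA, with points for samples and a line for the group mean. *Vim* and *Snai1* lie lower in all 4 RA-treated samples than in both DMSO samples, while the groups of *Zeb1* overlap.

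*Snai1* encodes the zinc finger repressor Snail. It was at 11.77 and 10.79 RPKM in the DMSO samples, 9.884 and 9.374 in the 25 nM RA samples and 8.382 and 8.477 in the 1 µM RA samples. The 3 groups did not overlap, and each RA-treated sample lay below both DMSO samples. With 25 nM RA it fell by 0.24 ± 0.072 (SE) on the log2 scale (edgeR adjusted p = 0.018), and with 1 µM RA it fell by 0.43 ± 0.073 (edgeR adjusted p = 1.1e-07). Between the doses the difference in log2 was -0.19 ± 0.075, lower at 1 µM RA, and it did not pass the adjusted test (edgeR adjusted p = 0.19). *Snai1* lies on chromosome 2 at 167538227-167542811 of mm10, on the plus strand, and this start is downstream of the RefSeq start used for the promoter shown further on. The counts behind these values were 577 to 961 per sample.

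*Vim* encodes vimentin, the intermediate filament of mesenchymal cells. Its level was 125.4 and 120 RPKM in DMSO, 111.7 and 103.3 RPKM in 25 nM RA and 102.7 and 98.88 RPKM in 1 µM RA. All 4 RA-treated samples lay below both DMSO samples, and the doses did not overlap. Its log2 fold change was -0.20 ± 0.053 (SE) with 25 nM RA (edgeR adjusted p = 0.0049) and -0.29 ± 0.053 with 1 µM RA (edgeR adjusted p = 9.1e-07). The difference between the doses was -0.095 with a 95% interval from -0.20 to 0.0086. *Vim* lies on chromosome 2 at 13574311-13582826, on the plus strand.

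At 25 nM RA the calls of *Vim* and *Snai1* were both lost without DMSO replicate 1 (edgeR adjusted p = 0.19 and 0.38) and without 25 nM RA replicate 2 (0.3 and 0.32), and by limma on log2 RPKM (adjusted p = 0.12 and 0.11). *Snai1* was also lost at this dose by DESeq2 (adjusted p = 0.31) and in a fit of single transcripts (0.38). At 1 µM RA both calls held under all 17 alternatives.

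*Snai2* encodes the related repressor Slug and was barely above the filter. It was at 0.309 and 0.2586 RPKM in DMSO, 0.2198 and 0.2365 in 25 nM RA and 0.126 and 0.1697 in 1 µM RA. The counts behind these levels were only 32 and 22 in DMSO, 17 and 23 in 25 nM RA and 11 and 15 in 1 µM RA. The 1 µM RA samples lay below all others, with a log2 fold change of -0.95 ± 0.35 (SE) against DMSO (edgeR adjusted p = 0.038). At 25 nM RA the log2 fold change was -0.32 with a 95% interval from -0.93 to 0.29 (edgeR adjusted p = 0.75). *Snai2* lies on chromosome 16 at 14705859-14709382, on the plus strand. Its call at 1 µM RA was lost without DMSO replicate 1 (edgeR adjusted p = 0.27), without 1 µM RA replicate 1 (0.3) and in the fit of single transcripts (0.31), and DESeq2 gave no adjusted p.

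*Twist1* encodes a basic helix-loop-helix factor of head mesenchyme and mesoderm. It was at 5.42 and 5.337 RPKM in DMSO, 4.817 and 4.402 in 25 nM RA and 4.566 and 4.591 in 1 µM RA. Both RA groups lay below DMSO and overlapped each other. Its log2 fold change was nearly the same for 25 nM RA (-0.23 ± 0.089 SE, edgeR adjusted p = 0.11) and for 1 µM RA (-0.24 ± 0.089, edgeR adjusted p = 0.045), so that the call at 1 µM RA alone does not set the doses apart, and the difference between them was -0.0077 (95% interval -0.19 to 0.17). *Twist1* lies on chromosome 12 at 33957671-33959831, on the plus strand. The call at 1 µM RA was lost without any 1 of the DMSO or 1 µM RA samples (edgeR adjusted p from 0.16 to 0.21), by DESeq2 (0.33) and in the fit of single transcripts (0.43).

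**Figure D2:**
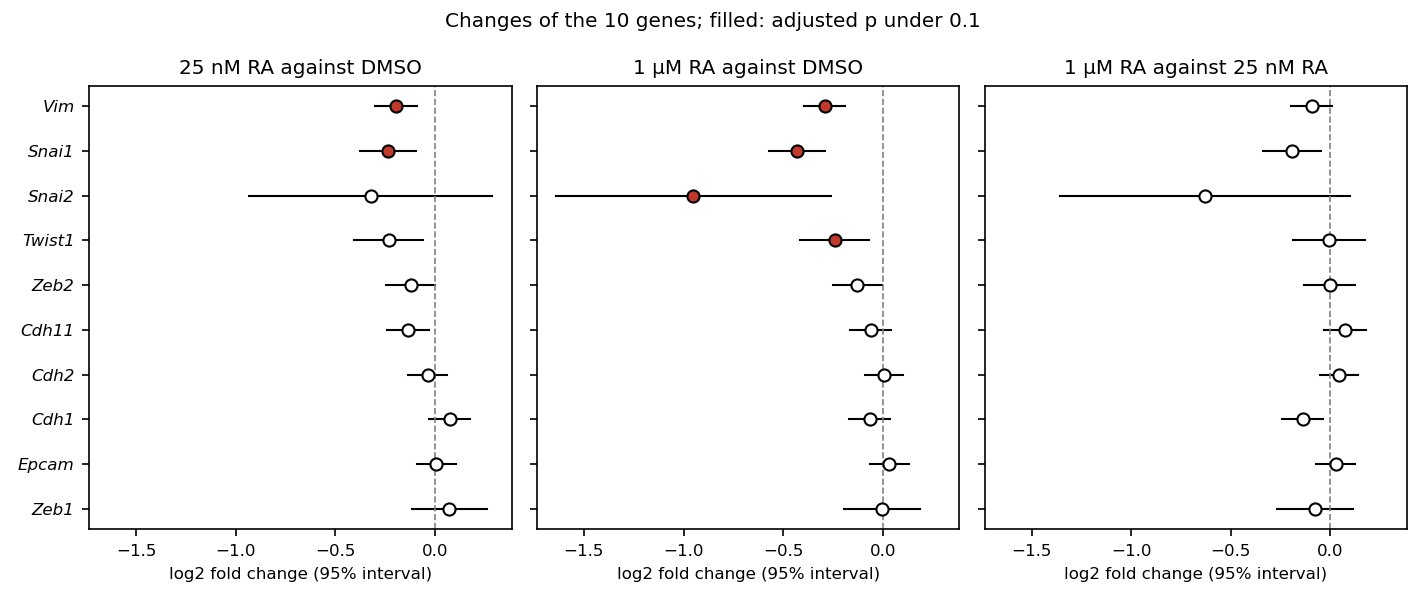
Log2 fold change of each of the 10 genes with its 95% interval from edgeR, for 25 nM RA against DMSO, 1 µM RA against DMSO and 1 µM RA against 25 nM RA. Filled points passed an adjusted p of 0.1: *Vim* and *Snai1* at 25 nM RA, these and *Snai2* and *Twist1* at 1 µM RA, and none between the doses.

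The sequences upstream of 3 of the genes that fell and of *Epcam*, which did not, are shown because Snail and Zeb proteins bind the E-box CAGGTG and because RA receptors bind direct repeats. Each is the 250 bases before the RefSeq start site on GRCm38.p6 (mm10), 5′ to 3′ on the plus strand, with CAGGTG or its reverse complement CACCTG in capitals.
Snai1, chr2:167537945-167538194: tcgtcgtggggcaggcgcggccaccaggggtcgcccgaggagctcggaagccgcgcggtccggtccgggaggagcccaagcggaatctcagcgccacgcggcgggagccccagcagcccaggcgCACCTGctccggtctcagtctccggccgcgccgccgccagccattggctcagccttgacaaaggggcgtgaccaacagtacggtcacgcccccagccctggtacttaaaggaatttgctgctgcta
Vim, chr2:13574061-13574310: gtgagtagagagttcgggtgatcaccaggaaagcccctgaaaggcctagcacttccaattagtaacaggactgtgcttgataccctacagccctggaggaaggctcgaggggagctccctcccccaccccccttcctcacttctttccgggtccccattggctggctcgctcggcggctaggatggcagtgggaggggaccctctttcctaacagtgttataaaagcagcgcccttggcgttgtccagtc
Twist1, chr12:33957421-33957670: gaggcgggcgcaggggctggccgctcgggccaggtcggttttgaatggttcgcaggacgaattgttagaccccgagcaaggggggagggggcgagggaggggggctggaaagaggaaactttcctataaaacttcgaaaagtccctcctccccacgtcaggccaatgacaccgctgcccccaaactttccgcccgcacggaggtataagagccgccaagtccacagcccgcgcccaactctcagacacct
Epcam, chr17:87635729-87635978: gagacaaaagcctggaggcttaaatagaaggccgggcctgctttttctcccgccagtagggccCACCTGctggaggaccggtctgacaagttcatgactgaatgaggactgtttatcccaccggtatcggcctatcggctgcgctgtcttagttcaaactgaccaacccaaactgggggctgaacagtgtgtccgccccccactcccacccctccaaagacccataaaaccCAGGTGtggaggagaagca
The set of promoters used here held 5 of the 10 genes, these and *Zeb2*, so the promoter of *Cdh1* was not searched. Over the window from 250 bases before to 50 bases after the start site, the E-box was found 1 time for *Snai1*, at -126 on the minus strand, and 2 times for *Epcam*, at -187 on the minus strand and at -19 on the plus strand. It was not in the windows of *Vim*, *Twist1* and *Zeb2*, and 20.3% of the 32544 promoters in the table held it. A direct repeat of the half-site NGNTCA, searched on both strands, was in none of these windows. With 5 spacer bases such a repeat was in 0.836% of all promoters, and with 2 spacer bases in 1.12%. These matches describe the letters of the windows only.

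*Zeb2* and *Zeb1* encode paired zinc finger repressors. *Zeb2* was at 3.308 and 3.381 RPKM in DMSO, 2.913 and 3.195 in 25 nM RA and 3.099 and 3.024 in 1 µM RA. All RA-treated samples lay below DMSO, but the log2 fold changes of -0.12 (95% interval -0.25 to 0.0016) and -0.13 (-0.25 to -0.003) did not pass the adjusted test (edgeR adjusted p = 0.35 and 0.18). *Zeb2* is the 1 gene of the 10 with more than 1 transcript in the tables, and these differed. The transcript NM_001289521 was at 2.058 and 2.346 RPKM in DMSO, 1.451 and 1.674 in 25 nM RA and 1.728 and 1.53 in 1 µM RA. In a fit of 22074 single transcripts it fell at 25 nM RA (log2 fold change -0.50 ± 0.14 SE, edgeR adjusted p = 0.024) and at 1 µM RA (-0.44 ± 0.14, edgeR adjusted p = 0.037). The other transcript, NM_015753, was at 1.25 and 1.034 RPKM in DMSO, 1.462 and 1.521 in 25 nM RA and 1.371 and 1.494 in 1 µM RA, above DMSO in all RA-treated samples, and did not pass the test (log2 fold changes 0.38 and 0.32, edgeR adjusted p = 0.16 and 0.2). The reads of the gene were divided between the transcripts by the authors' estimation, and the difference between the transcripts was not tested.

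*Zeb1* was at 1.478 and 1.307 RPKM in DMSO, 1.401 and 1.535 in 25 nM RA and 1.46 and 1.34 in 1 µM RA. The 3 groups overlapped, and the 95% intervals of the log2 fold change ran from -0.12 to 0.26 at 25 nM RA and from -0.19 to 0.185 at 1 µM RA. Exons of *Zeb2* overlap those of *Zeb2os* and *Gm27761*, and exons of *Zeb1* those of *Gm10125*, on the opposite strand in GENCODE M21. The methods name a stranded library kit, but whether the counting used the strand of the reads is not given in the sources used here. Whether reads of these pairs were kept apart in the counts is therefore not known.

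*Cdh1* encodes E-cadherin, the adhesion molecule of epithelia. It was at 65.29 and 61.94 RPKM in DMSO, 65.43 and 68.77 in 25 nM RA and 62.18 and 60.06 in 1 µM RA. The 25 nM RA samples were the highest and lay apart from both other groups, while 1 µM RA overlapped DMSO. The log2 fold change against DMSO was 0.073 with 25 nM RA (95% interval -0.029 to 0.17) and -0.065 with 1 µM RA (-0.17 to 0.037), and neither passed the test (edgeR adjusted p = 0.59 and 0.46). Between the doses *Cdh1* differed by -0.14 ± 0.052 (SE), lower at 1 µM RA, with an unadjusted p of 0.0083 and an edgeR adjusted p of 0.17. With total counts in place of TMM this difference passed (-0.15, edgeR adjusted p = 0.093). *Cdh1* lies on chromosome 8 at 106603368-106670246, on the plus strand.

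*Cdh2*, N-cadherin, was at 44.09 and 43.28 RPKM in DMSO, 41.67 and 43.71 in 25 nM RA and 43.78 and 44.38 in 1 µM RA. Both RA groups overlapped DMSO, and the 25 nM RA samples lay just below the 1 µM RA samples. The 95% intervals of the log2 fold change against DMSO, -0.13 to 0.06 at 25 nM RA and -0.092 to 0.10 at 1 µM RA, span 0. *Cdh11*, the cadherin of mesenchymal cells, was at 17.12 and 16.65 RPKM in DMSO, 15.11 and 15.73 in 25 nM RA and 15.8 and 16.77 in 1 µM RA. It was lowest in 25 nM RA, with a log2 fold change of -0.14 ± 0.053 (SE) that missed the threshold (edgeR adjusted p = 0.13), and overlapped DMSO at 1 µM RA. The fall of *Cdh11* at 25 nM RA passed with total counts (edgeR adjusted p = 0.094) and in a fit of only the 4 samples compared (0.095). *Epcam*, an epithelial adhesion molecule, was at 69.89 and 70.15 RPKM in DMSO, 69.41 and 71.69 in 25 nM RA and 72.95 and 71.12 in 1 µM RA. Its 95% intervals were -0.091 to 0.105 at 25 nM RA and -0.064 to 0.13 at 1 µM RA.

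None of the 10 genes passed when 1 µM RA was set directly against 25 nM RA, where 2.62% of all genes tested were lower and 0.792% were higher at 1 µM RA. By an unadjusted p under 0.05, 2 of the 10 genes differed between the doses, *Cdh1* and *Snai1*, both lower at 1 µM RA, where by the same threshold 8.07% of all genes tested were lower and 4.7% were higher. The quasi-likelihood test, DESeq2 and limma each called 0 of the 10 genes between the doses. The duplicates of 25 nM RA lay apart from those of DMSO for 7 of the 10 genes, where 44.4% of all genes tested did so, and those of 1 µM RA for 6 of the 10, where the share of all genes was 54.4%. By the study's list criteria (an adjusted p under 0.1, with a log2 fold change above 1 and RPKM above 1 for activated genes or below -0.6 and above 7 for repressed genes), 0 of the 10 genes passed at either dose. The criteria were applied here to values summed per gene, while the study ranked transcripts. RPKM was taken here as the mean of the RA samples for activated genes and of the DMSO samples for repressed genes. In this form the criteria were met by 0.475% of all genes tested for 25 nM RA and by 0.707% for 1 µM RA.

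The ratio of *Cdh1* to *Cdh2*, the cadherin switch in a single number that library size does not move, was 1.481 and 1.431 in DMSO, 1.57 and 1.573 in 25 nM RA and 1.42 and 1.353 in 1 µM RA. The 25 nM RA samples were the highest and the 1 µM RA samples the lowest, with means of 1.456 ± 0.035 (SD, n = 2), 1.572 ± 0.0022 and 1.387 ± 0.047. The means of the doses thus lay on opposite sides of the DMSO mean. At 1 µM RA the nearest sample (1.42) was just below the nearest DMSO sample (1.431), a gap smaller than the SD of either group. Neither *Cdh1* nor *Cdh2* passed the test against DMSO at either dose. The ratio of *Epcam* to *Vim* was 0.5573 and 0.5846 in DMSO, 0.6214 and 0.6938 in 25 nM RA and 0.71 and 0.7193 in 1 µM RA. It lay above DMSO in all RA-treated samples, and of its parts *Vim* fell and *Epcam* did not pass the test. With 2 samples against 2, a two-sided exact permutation test cannot give a p below 0.333, and none was run on the ratios.

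**Figure D3:**
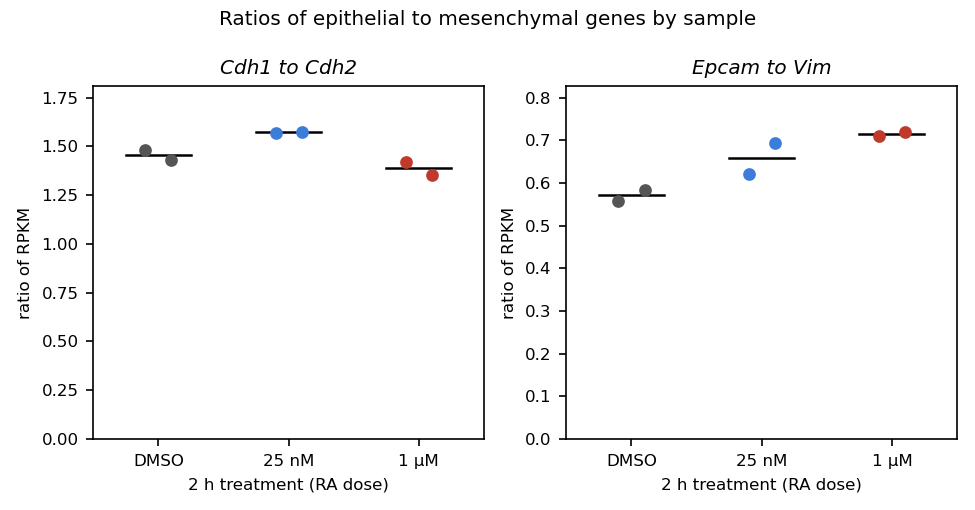
Ratio of *Cdh1* to *Cdh2* and of *Epcam* to *Vim* (both from RPKM, linear axis from 0) in each sample by treatment, with a line for the mean of the 2 samples. The *Cdh1* to *Cdh2* ratio is highest at 25 nM RA (mean 1.572) and lowest at 1 µM RA (mean 1.387), and the *Epcam* to *Vim* ratio is higher in the RA-treated samples than in DMSO.

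Beside the falls of *Snai1* and *Vim*, the presomitic mesoderm and endoderm markers given above were lower in all RA-treated samples, and their part in the result was not tested. Since ESCs are kept on feeder fibroblasts before differentiation, fibroblast markers were also read. The 7 of them summed to 5.94 to 6.27 RPKM in DMSO, 5.82 to 6.02 in 25 nM RA and 5.26 to 5.43 in 1 µM RA, with *Lum* at or below 0.0251 RPKM in every sample. Of the 6 that were tested 0 were called at 25 nM RA and 3 were lower at 1 µM RA, and their part in the fall of *Vim* was not tested. Of the 5 NMP markers tested, 4 were higher at 25 nM RA and 3 at 1 µM RA, and none was lower.

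Other genes of adhesion and of the transition were read from lists, which share *Col1a1*, *Col1a2*, *Col3a1*, *T*, *Tbx6* and *Mesp1* with the marker lists above. At 25 nM RA 0 of 17 other classical cadherins and catenins tested were higher and 2 lower, against 4.5% and 3.55% of all genes. At 1 µM RA 1 was higher and 4 were lower, against 8.54% and 11.2% of all genes. The median log2 fold changes of the list at 25 nM RA and 1 µM RA were -0.062 and -0.15. *Jup*, plakoglobin, which links cadherins to the cytoskeleton, fell from 6.858 and 6.258 RPKM in DMSO to 5.989 and 5.494 in 25 nM RA and 4.843 and 4.973 in 1 µM RA (log2 fold changes -0.20 and -0.43, edgeR adjusted p = 0.028 and 1.4e-09). *Ctnnd1*, the p120 catenin that stabilizes cadherins at the membrane, fell by 0.18 in log2 at 1 µM RA (edgeR adjusted p = 0.0031). *Cdh24* and *Ctnnd2* also fell at 1 µM RA (log2 fold changes -0.22 and -0.38, edgeR adjusted p = 0.072 and 0.078). *Cdh8* fell at 25 nM RA (-1.15, edgeR adjusted p = 0.085), at levels of 0.149 RPKM or less. At 25 nM RA DESeq2 and limma called 0 genes of the list, and *Cdh8* was also lost by the quasi-likelihood test. At this dose *Jup* was lost without DMSO replicate 1 or 25 nM RA replicate 2, and *Cdh8* without either DMSO sample or 25 nM RA replicate 2. *Cdh24* and *Ctnnd2* were lost without either DMSO sample, and also without 1 µM RA replicate 1 for *Cdh24* and without 1 µM RA replicate 2 or 25 nM RA replicate 2 for *Ctnnd2*. At 1 µM RA, DESeq2 and limma also lost both genes. Without either DMSO sample, 2 genes of the list were called at this dose, against 3 by DESeq2 and 2 by limma.

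More epithelial genes were called higher than lower. Of 35 epithelial junction and identity genes, 8 were higher and 1 was lower at 25 nM RA, against 4.5% and 3.55% of all genes. At 1 µM RA 10 were higher and 4 were lower, against 8.54% and 11.2% of all genes. The median log2 fold changes of 0.068 and 0.0035 were small. *Krt8* and *Krt18*, the paired keratins of simple epithelia, both rose. *Krt8* was at 145.6 and 144.4 RPKM in DMSO, 169 and 154.7 in 25 nM RA and 175.9 and 179 in 1 µM RA (log2 fold changes 0.15 and 0.28, edgeR adjusted p = 0.042 and 6.6e-07). *Krt18* rose by 0.19 and 0.27 in log2 (edgeR adjusted p = 0.0072 and 4e-06). Of the tight junction genes, *Ocln*, occludin, rose at 1 µM RA (0.40, edgeR adjusted p = 1.5e-05) and *Cldn3*, a claudin, rose at 25 nM RA (0.40, edgeR adjusted p = 0.0077). *Grhl3*, a transcription factor of surface epithelium, rose at both doses (0.41 and 0.39, edgeR adjusted p = 0.00013 and 0.00025). The 4 genes called lower at 1 µM RA were *Dsp*, *F11r*, *Pkp2* and *Esrp1* (log2 fold changes -0.22, -0.18, -0.15 and -0.13, edgeR adjusted p = 0.00051, 0.0064, 0.055 and 0.079). *Pkp2* was also the 1 gene called lower at 25 nM RA (-0.17, edgeR adjusted p = 0.04). These 4 genes lie outside the naming rule given below and were added after their values were seen. The count at 25 nM RA dropped from 9 to 4 without DMSO replicate 1, to 2 without DMSO replicate 2 and to 5 without 25 nM RA replicate 1, and that at 1 µM RA from 14 to 8 and 9 without DMSO replicate 1 and 2. *Krt8* at 25 nM RA was lost without any of the former 3 samples, *Cldn3* without DMSO replicate 2 or 25 nM RA replicate 1, and *Krt18* without DMSO replicate 2. At this dose limma also lost *Krt8*, and DESeq2 lost *Cldn3*.

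Of 22 other mesenchymal genes tested, 2 were higher and 3 were lower at 25 nM RA, against 4.5% and 3.55% of all genes. At 1 µM RA 2 were higher and 7 were lower, against 8.54% and 11.2% of all genes. The medians of the list at 25 nM RA and 1 µM RA were -0.017 and -0.13. *Fn1*, fibronectin, the matrix ligand of migrating mesoderm, fell from 47.98 and 51.11 RPKM in DMSO to 39.16 and 42.78 in 25 nM RA and 32.06 and 33.11 in 1 µM RA (log2 fold changes -0.28 and -0.61, edgeR adjusted p = 3.2e-05 and 4.3e-25). *Itga5*, a subunit of the fibronectin receptor, fell at both doses (-0.24 and -0.29, edgeR adjusted p = 0.0032 and 4.8e-05). *Col5a1*, a fibrillar collagen, fell at 1 µM RA (-0.33, edgeR adjusted p = 3.1e-06). In the opposite direction, *Pdgfrb*, a PDGF receptor, rose from 1.17 and 1.127 RPKM to 3.325 and 2.942 in 25 nM RA and 3.623 and 3.742 in 1 µM RA (log2 fold changes 1.44 and 1.67, edgeR adjusted p = 1.2e-60 and 3.4e-86). *Pdgfra*, the other PDGF receptor, rose by 0.29 and 0.69 in log2 (edgeR adjusted p = 4.9e-07 and 2.4e-40). Without DMSO replicate 2 the count at 25 nM RA dropped from 5 to 3, and *Itga5* was lost. DESeq2 likewise called 3 genes at 25 nM RA and lost *Itga5*, and it called 6 genes at 1 µM RA, against 9.

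**Figure D4:**
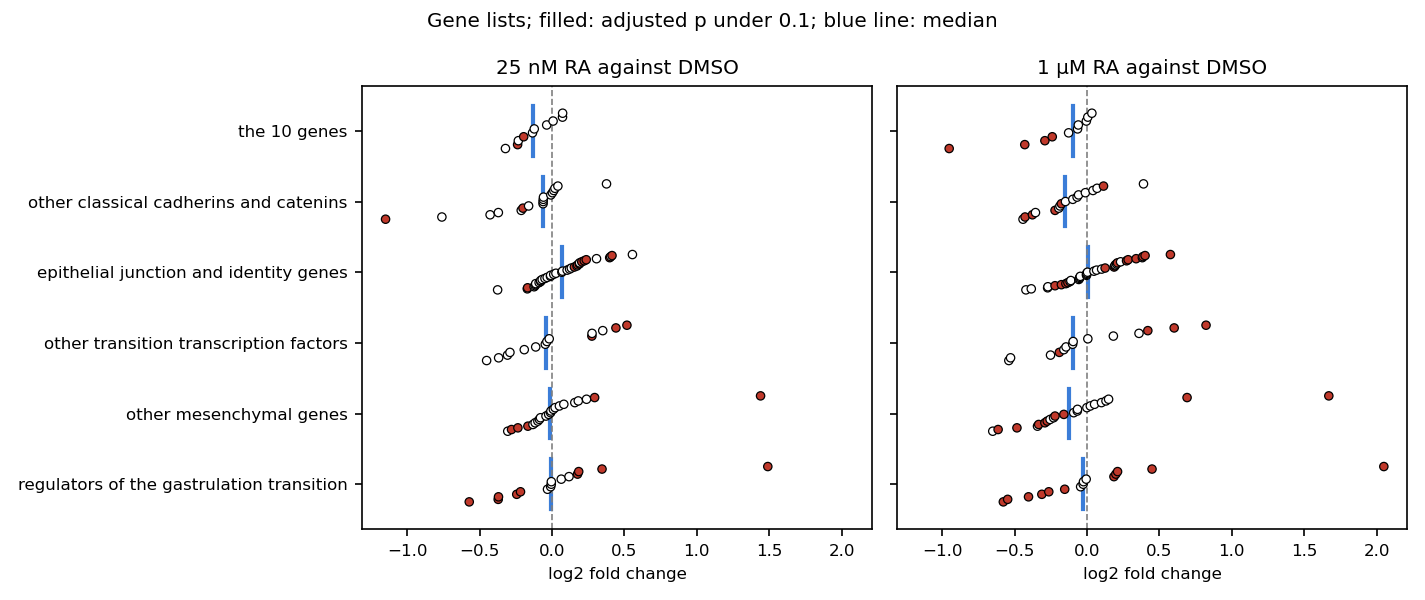
Log2 fold change of every tested gene of the 10 genes and of the 5 lists, for 25 nM RA and 1 µM RA against DMSO, with filled points for an adjusted p under 0.1 in edgeR and a blue line for the median. Most genes of each list lie near 0, and the points farthest to the right are *Fgf4* and *Pdgfrb*.

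Of 14 other transcription factors of the transition, 3 were higher and 0 were lower at 25 nM RA, against 4.5% and 3.55% of all genes. At 1 µM RA 3 were higher and 1 was lower, against 8.54% and 11.2% of all genes. The 3 that rose were *Foxc1* and *Foxc2*, forkhead factors of paraxial mesoderm, and *Sox9*. *Foxc1* rose from 4.764 and 4.402 RPKM to 5.558 and 5.581 in 25 nM RA and 6.802 and 7.206 in 1 µM RA (log2 fold changes 0.27 and 0.60, edgeR adjusted p = 0.0011 and 1.1e-18). *Foxc2* rose by 0.44 and 0.82 in log2 (edgeR adjusted p = 0.023 and 7.2e-09) and *Sox9* by 0.52 and 0.42 (edgeR adjusted p = 0.04 and 0.081). *Tcf4*, a basic helix-loop-helix factor, fell at 1 µM RA (-0.19, edgeR adjusted p = 0.015). At 25 nM RA *Foxc2* and *Sox9* were lost without either DMSO sample or 25 nM RA replicate 1; at 1 µM RA *Sox9* was lost without either DMSO sample or 1 µM RA replicate 1, and *Tcf4* without DMSO replicate 1 or 1 µM RA replicate 2. Without DMSO replicate 1 the counts of the list were 1 at 25 nM RA and 2 at 1 µM RA, and without 25 nM RA replicate 1 the count at 25 nM RA was 1. DESeq2 called 1 gene of the list at 25 nM RA, where it lost *Foxc2* and *Sox9*, and limma lost *Sox9* there and called 2 genes at 1 µM RA. At 1 µM RA *Sox9* was lost by the quasi-likelihood test, DESeq2, limma and total counts, and *Tcf4* by limma.

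Regulators of the transition at gastrulation included larger changes than the 10 genes. Of 15 tested, 4 were higher and 5 were lower at 25 nM RA, against 4.5% and 3.55% of all genes. At 1 µM RA 5 were higher and 6 were lower, against 8.54% and 11.2% of all genes. *Fgf4*, a signal of the primitive streak, rose from 4.422 and 4.205 RPKM in DMSO to 11.99 and 12.34 in 25 nM RA and 17.82 and 18.04 in 1 µM RA (log2 fold changes 1.49 and 2.05, edgeR adjusted p = 1.6e-118 and 8.3e-241). *Nodal*, a TGF-beta family signal that induces mesendoderm, rose by 0.34 and 0.45 in log2 (edgeR adjusted p = 3.7e-08 and 2.8e-14). *Mesp1*, a factor of early mesoderm, fell from 47.85 and 49.41 RPKM to 33.87 and 31.79 in 25 nM RA and 31.25 and 34.2 in 1 µM RA (-0.57 and -0.58, edgeR adjusted p = 2.4e-20 and 5.3e-21). *Tbx6*, which directs cells to presomitic mesoderm, fell by 0.37 and 0.55 in log2 (edgeR adjusted p = 8.5e-05 and 2.3e-10), and *Wnt3* fell by 0.37 and 0.40 (edgeR adjusted p = 7.4e-08 and 1.8e-09).

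The genes whose log2 CPM (counts scaled to the depth of each library) followed *Snai1* most closely over the 6 samples were *Fzd10* (Pearson r = 0.9991), *Gltp* (0.9964), *Gtf3c1* (0.9951), *Mast2* (0.9949) and *Rad54l2* (0.9941), of 9022 genes compared with a mean CPM of at least 10. *Snai1* was taken for this comparison as the member with the smallest adjusted p. *Fzd10*, a WNT receptor, was at 18.79 and 17.36 RPKM in DMSO, 16.16 and 15.56 in 25 nM RA and 13.98 and 14.29 in 1 µM RA. These correlations describe 6 samples that share their treatments, and no test was made of them.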

How the data were processed

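Ribosomal RNA-depleted total RNA of 6 samples was sequenced, and the authors aligned the reads with TopHat2 2.0.13 and Bowtie2 2.2.5.0 to mm10 and quantified RefSeq transcripts with an expectation-maximization step in Partek 6.6, as the submitters' processing notes and the methods name them. The deposited estimated counts are not normalized. The deposited RPKM values were scaled by the authors by transcript length and reads per sample. Here both were summed per gene, and the counts were rounded and fitted for all 6 samples in edgeR 4.0.16 (R 4.3.3) with filterByExpr, TMM and the likelihood ratio test that the methods name. The number of reads limits the precision of low genes, and intervals come from the fit. Alternatives were the quasi-likelihood test, DESeq2 1.42.0, limma 3.58.1 on log2(RPKM + 0.1), other scalings, filters and thresholds, single transcripts, a replicate block and leaving out each sample. The 10 genes and the lists were chosen with earlier results of these data known. Of each list, the text names up to 4 called genes with the smallest adjusted p at each dose, and the 5 genes most correlated with *Snai1*. The result of 1 gene so chosen is not reported here. Cdh19 and Epb41l5 were not analysed here. The last base of a transcript was taken as the stop position minus 1, because the deposited stop equals the RefSeq end plus 1 for 11287 of 19626 genes.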

Additional observations from a re-analysis of the deposited data

Results flagged for a closer look

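For 8 of the genes named from the lists, the effect of 1 µM RA differed from that of 25 nM RA in the direct comparison of the doses by edgeR's likelihood ratio test, and none of the 10 genes of the adhesion switch was among them. Over all genes tested, 2.62% were lower and 0.792% were higher at 1 µM RA than at 25 nM RA. The naming rule picked genes by adjusted p against DMSO in the same samples, so the count of 8 cannot be set against these shares. The values per gene are log2 differences, 1 µM RA minus 25 nM RA. *Fgf4* was higher at 1 µM RA by 0.56 (edgeR adjusted p = 3.7e-21). *Pdgfra* was higher by 0.40 (edgeR adjusted p = 4e-12). *Foxc1* was higher by 0.33 (edgeR adjusted p = 9.3e-05). *Foxc2* was higher by 0.38 (edgeR adjusted p = 0.071). *Pdgfrb* was higher by 0.23 (edgeR adjusted p = 0.053). *Fn1* was lower at 1 µM RA, with a difference of -0.33 (edgeR adjusted p = 2.5e-06). *Jup* was lower, with a difference of -0.23 (edgeR adjusted p = 0.03). *Col5a1* was lower, with a difference of -0.20 (edgeR adjusted p = 0.065). *Col1a1* (-0.48, edgeR adjusted p = 0.06) and *Col3a1* (-0.50, edgeR adjusted p = 0.065), list genes outside the naming rule, were added after their values were seen. Of 16 alternatives with a value per gene, *Fgf4* and *Pdgfra* passed in 16, *Fn1* and *Foxc1* in 15, *Jup* in 12, *Pdgfrb* in 9 and *Foxc2* and *Col5a1* in 6.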

How the results depend on the processing

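*Vim* and *Snai1* kept their direction and their call at 1 µM RA under all 17 alternatives; their calls at 25 nM RA and those of *Snai2* and *Twist1* at 1 µM RA did not hold throughout, and the cause was not tested. DESeq2 called 1 of the 10 genes and 567 genes in all at 25 nM RA, 2 and 1594 at 1 µM RA, and 158 in all between the doses. With total counts 4 of the 10 genes were called at 25 nM RA and 1 between the doses, and the log2 fold changes of *Epcam* at 25 nM RA (-0.000969) and *Cdh2* at 1 µM RA (-0.0151) changed sign. limma called 0 of the 10 genes and 631 genes at 25 nM RA and 20 between the doses, and turned *Zeb1* at 1 µM RA (0.00848) and *Zeb2* between the doses (0.00461). The fit of single transcripts called 1833 transcripts at 1 µM RA, and its *Zeb2* transcript NM_001289521 differed by 0.0538 between the doses. Of the 35 epithelial genes DESeq2 called 4 and limma 4 at 25 nM RA, against 9, and DESeq2 called 9 at 1 µM RA, against 14. Between the doses the quasi-likelihood test called 336 genes and an adjusted p under 0.05 left 340, against 516. Leaving out 1 sample at a time, 0 to 3 of the 10 genes were called at 25 nM RA and 2 to 4 at 1 µM RA, with 799 to 1345, 1922 to 2838 and 205 to 577 genes in all at 25 nM RA, 1 µM RA and between the doses. The same runs turned log2 fold changes near 0: *Epcam* (-0.0243 to 0.0378), *Zeb1* (-0.00726 to 0.163) and *Cdh2* (-0.0799 to 0.00464) at 25 nM RA, *Zeb1* (-0.0779 to 0.0859) at 1 µM RA, and *Epcam* (-0.00471 to 0.0601), *Twist1* (-0.0668 to 0.045), *Zeb1* (-0.151 to 0.00488) and *Zeb2* (-0.074 to 0.0763) between the doses. Same-numbered samples showed little shared deviation (correlations -0.04086, 0.04841 and -0.0615). With 2 samples per group, these values cannot show whether same-numbered dishes were handled as pairs. A replicate block called 2 of the 10 genes and 1138 genes at 25 nM RA, 4 and 2756 at 1 µM RA, and 0 and 423 between the doses. At its 11 to 32 counts per sample, *Snai2* is limited by depth.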
